A study of Mus musculus with 16 samples.

Results

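Parvalbumin (Pvalb) and 9 genes of the perineuronal net were followed in the medial prefrontal cortex of newborn and juvenile mice. The members, taken by gene symbol, were Pvalb, the lecticans Acan, Bcan, Ncan and Vcan, the link protein genes Hapln1 and Hapln4, the tenascins Tnr and Tnc, and the receptor phosphatase gene Ptprz1. They are 10 of the 20494 genes measured at either age, with 9 analysed at both ages, and the P1 level of Pvalb was not analysed here. All of those analysed passed the minimum mean of 10 normalized reads.

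The libraries were poly(A) RNA-seq of dissected cortex from male mice of the outbred ICR stock, with no engineered allele named. Control offspring (Ctrl) had unstressed dams, and the prenatal stress group (PNS) had dams that were stressed while pregnant. Brains were taken at postnatal day 1 (P1) or 14 (P14), with 4 libraries in each of 4 groups, 16 in all. The labels give neither the form and timing of the stress nor whether libraries of a group came from separate animals or litters, so the p-values reflect variation among these libraries, which may in part be technical. Recovered reads per library ran from 34.0 to 58.8 M at P1 and from 15.1 to 73.0 M at P14. In bulk tissue, fewer cells of a type and less RNA per cell cannot be told apart.

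Some libraries stood apart. At P1 the summed level of 6 olfactory bulb markers was 878 to 2623 normalized reads in Ctrl, and 5828, 12230, 8307 and 383 in PNS replicates 1 to 4. At P14 PNS replicate 4 had the highest sum of cortical projection neuron markers, 172530 against 116700 to 131220 in the other 7 libraries, and the lowest sum of oligodendrocyte markers, 7181 against 9868 to 29723. The stress differences and PNS age changes that turn on these libraries are also given without PNS replicates 2 and 3 or 1 to 3 at P1, or without PNS replicate 4 at P14.

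Perineuronal nets are lattices of extracellular matrix that form after birth around the cell body and proximal dendrites of some neurons, most prominently fast-spiking interneurons that contain parvalbumin. Hyaluronan strands carry lecticans, which are chondroitin sulfate proteoglycans, link proteins clamp the lecticans to the strands, and tenascin-R joins the lecticans at their other end. In the young brain the matrix is looser and rich in neurocan, versican and tenascin-C, and the mature nets appear as cortical critical periods close.

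In the mouse genome 4 link protein genes each lie next to a lectican gene, with no protein-coding gene between the partners in the GENCODE vM21 annotation of GRCm38. Hapln1 and Vcan lie 43.7 kb apart on chromosome 13, Hapln4 and Ncan 2.22 kb apart on chromosome 8, and Hapln2 and Bcan 21.5 kb apart on chromosome 3. Hapln3 and Acan converge on chromosome 7 with a gap of 2 bp, so reads that run past the end of either gene could be counted for its neighbour. Tnr shares 443 bp of exon with the antisense gene Gm38039, and Tnc shares 176 bp with the opposite-strand transcript 8030451A03Rik. The labels do not state whether counting used strand, so how these reads were divided is uncertain.

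The promoters below belong to the neighbours Vcan and Hapln1, which changed in opposite directions with age, to Tnc, which fell most in both groups, and to Pvalb and Acan, the members that define the mature net-bearing cell and its net. Each is the RefSeq window of GRCm38.p6 from 250 bases before to 50 bases after an annotated start, read 5′ to 3′ on the gene's strand, and 9 of the 10 members had such a window. Capitals mark matches on either strand to the letters TATAAA of the TATA box motif, to the CCAAT box motif, and to the letters GGGCGG of the GC box motif.
Vcan, chr13:89742463-89742762, minus strand: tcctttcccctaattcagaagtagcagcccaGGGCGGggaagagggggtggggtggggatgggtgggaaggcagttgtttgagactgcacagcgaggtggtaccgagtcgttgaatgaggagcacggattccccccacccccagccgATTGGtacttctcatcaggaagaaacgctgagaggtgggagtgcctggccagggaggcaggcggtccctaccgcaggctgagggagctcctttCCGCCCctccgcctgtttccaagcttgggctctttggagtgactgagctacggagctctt
Hapln1, chr13:89540386-89540685, plus strand: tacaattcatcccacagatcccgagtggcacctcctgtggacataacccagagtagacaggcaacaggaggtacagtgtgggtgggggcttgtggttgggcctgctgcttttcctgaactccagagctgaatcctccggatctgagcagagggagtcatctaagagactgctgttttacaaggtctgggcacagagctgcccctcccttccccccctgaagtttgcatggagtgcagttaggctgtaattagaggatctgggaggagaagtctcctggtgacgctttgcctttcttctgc
Tnc, chr4:64046966-64047265, minus strand: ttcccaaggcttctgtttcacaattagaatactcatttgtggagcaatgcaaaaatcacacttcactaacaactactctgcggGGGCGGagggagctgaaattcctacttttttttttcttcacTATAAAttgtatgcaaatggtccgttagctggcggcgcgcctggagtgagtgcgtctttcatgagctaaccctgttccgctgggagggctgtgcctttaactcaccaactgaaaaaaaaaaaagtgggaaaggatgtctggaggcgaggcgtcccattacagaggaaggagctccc
Acan, chr7:79052976-79053275, plus strand: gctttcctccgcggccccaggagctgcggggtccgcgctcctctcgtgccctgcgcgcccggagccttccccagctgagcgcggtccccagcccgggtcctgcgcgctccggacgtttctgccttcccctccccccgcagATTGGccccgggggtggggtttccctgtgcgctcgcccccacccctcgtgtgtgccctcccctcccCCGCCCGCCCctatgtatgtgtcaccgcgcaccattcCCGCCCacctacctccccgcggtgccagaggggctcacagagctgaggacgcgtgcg
Pvalb, chr15:78206351-78206650, minus strand: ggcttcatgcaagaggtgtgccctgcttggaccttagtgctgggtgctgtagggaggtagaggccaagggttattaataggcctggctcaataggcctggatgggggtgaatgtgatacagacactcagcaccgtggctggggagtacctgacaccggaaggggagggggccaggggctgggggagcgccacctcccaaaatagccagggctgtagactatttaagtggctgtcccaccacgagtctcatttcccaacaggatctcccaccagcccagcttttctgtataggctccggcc

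The 5 windows differ in composition. The Acan window had 74% G and C and 31 CpG dinucleotides, the Vcan window 61% and 12, the Pvalb window 58.3% and 5, the Hapln1 window 54.3% and 3, and the Tnc window 47.3% and 10. The median of all 32841 windows was 52.7% and 7. A second start was annotated for Pvalb, with 67.7% and 25 in its window and none of the motifs, and for Tnc, with 54% and 16, and the windows printed are those of the first start in the table. Acan held GGGCGG on the opposite strand 3 times, at positions -44, -40 and -7 from the start, of which the first 2 overlap, and CCAAT at -110. Vcan held GGGCGG at -219 and -10 and CCAAT at -103, and Tnc held GGGCGG at -167 and TATAAA at -126. None of these letters occurred in the Hapln1 and Pvalb windows. Over all windows 35.7% held GGGCGG, 37.4% CCAAT and 13.6% TATAAA, so these matches are common ones and only describe the letters.

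The first comparison was between ages in the control cortex. Of the genes of the loose juvenile matrix, Vcan fell 6.24-fold and Tnc 6.59-fold from P1 to P14. The link protein genes rose 14.1-fold (Hapln1) and 18.5-fold (Hapln4), while Bcan and Tnr rose by less than 2-fold, Ptprz1 fell 1.46-fold, and Ncan and Acan did not pass the test. In edgeR's quasi-likelihood test 7 of the 9 members passed an adjusted p of 0.05, 4 higher and 3 lower at P14, and 4 of the 9 did so with at least a 2-fold change. Over all 16512 genes tested 72.4% passed (35.4% higher and 37% lower), 29.3% with at least a 2-fold change, so the number of members called is close to that of genes at large. In 8 of the 9 members the libraries of the ages did not overlap, as in 68.1% of all genes. The values below are reads per 1 M reads after TMM scaling (CPM), in the order of replicates 1 to 4.

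Vcan encodes versican, a large lectican of the embryonic and early postnatal brain. In Ctrl it stood at 164, 165, 143 and 176 CPM at P1 and at 27.6, 24.7, 24.5 and 26.9 CPM at P14. The lowest newborn library was more than 5-fold above the highest juvenile one, and the fitted change was -2.64 ± 0.095 (log2, SE; adjusted p = 2.81e-13, edgeR). Tnc encodes tenascin-C, a hexameric glycoprotein of the immature brain made by radial glia and young astrocytes. Its Ctrl libraries stood at 202, 155, 168 and 178 CPM at P1 and at 22.6, 23.6, 30.5 and 30.7 CPM at P14. The groups lay far apart, with a change of -2.72 ± 0.139 (adjusted p = 1.76e-11, edgeR).

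Hapln1 encodes the link protein first known from cartilage, which stabilises lecticans on hyaluronan and is expressed by net-bearing neurons. It went the other way from its neighbour Vcan, from 3.54, 5.49, 7.29 and 2.91 CPM in Ctrl at P1 to 56.4, 80.7, 68.6 and 64.1 CPM at P14. The groups lay far apart, with a change of 3.81 ± 0.319 (adjusted p = 1.01e-08, edgeR). Hapln4 encodes the brain link protein also called Bral2, which partners brevican. It was the weakest member in newborn controls, at 0.950, 0.638, 1.92 and 1.15 CPM, and reached 20.5, 24.5, 22.8 and 16.1 CPM at P14. This change, 4.21 ± 0.321, was the largest among the members in Ctrl (adjusted p = 3.03e-09, edgeR).

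Bcan encodes brevican, the small brain-specific lectican of mature matrix. It rose from 128, 137, 127 and 108 CPM to 249, 232, 253 and 244 CPM, a change of 0.97 ± 0.120 (adjusted p = 1.49e-06, edgeR). Tnr encodes tenascin-R, which crosslinks lecticans in the net. It rose from 173, 179, 156 and 226 CPM to 345, 351, 315 and 257 CPM, a change of 0.79 ± 0.133 (adjusted p = 4.7e-05, edgeR). For both genes every P14 library of the controls stood above every P1 library.

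The remaining members changed less in controls. Ptprz1 encodes receptor protein tyrosine phosphatase zeta, a transmembrane proteoglycan of glia whose secreted form is phosphacan. It fell from 502, 433, 472 and 424 CPM to 328, 310, 280 and 333 CPM, a change of -0.55 ± 0.119 (adjusted p = 0.00055, edgeR). Ncan encodes neurocan, the lectican most typical of the growing brain, and went from 547, 660, 553 and 649 CPM to 508, 465, 484 and 439 CPM. The libraries of the ages did not overlap, but the fitted change of -0.35 ± 0.157 did not pass (adjusted p = 0.057, edgeR). Acan encodes aggrecan, the lectican on which cortical nets depend. It stood at 2.19, 3.14, 2.66 and 3.98 CPM at P1 and at 3.65, 2.74, 1.96 and 3.17 CPM at P14, overlapping groups with a change of -0.02 ± 0.232 and a 95% interval from -0.51 to 0.47 (adjusted p = 0.956, edgeR).

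**Figure D1:**
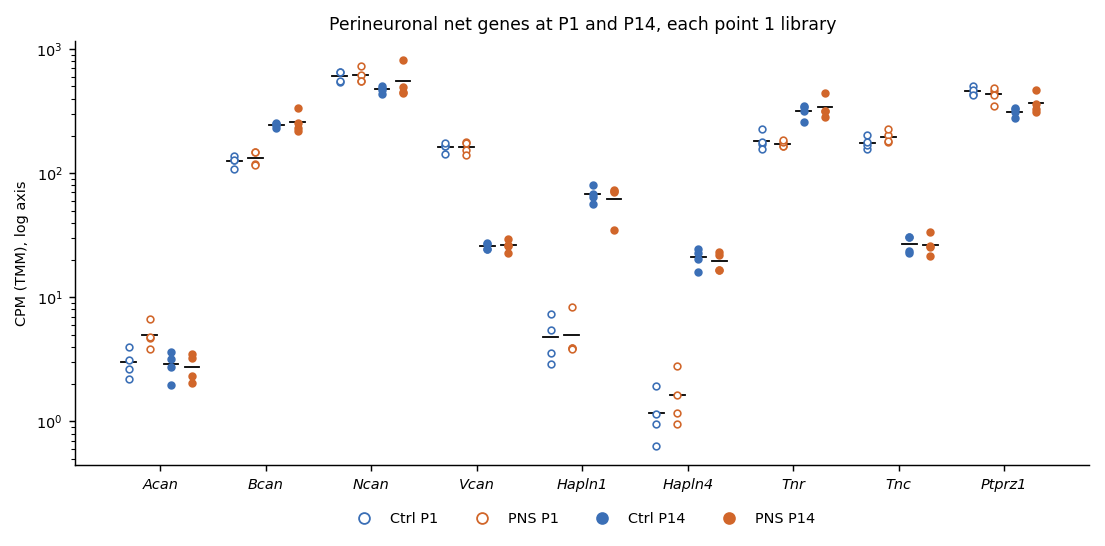
TMM-scaled CPM (log axis) of the 9 members analysed at both ages, by age and group, with a point for each library and a bar at the group mean. Vcan and Tnc sit above 140 CPM at P1 and below 34 CPM at P14 in every library, and Hapln1 and Hapln4 rise above their newborn values in every library.

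The same comparison was made in the PNS groups, which share no library with the controls. Again 7 of 9 members passed, 4 higher and 3 lower, against 73.5% of all genes (35% higher and 38.5% lower), and 4 with at least a 2-fold change, against 30.4%. The ages did not overlap in 7 of the 9 members and in 64.9% of all genes. Vcan went from 154, 179, 141 and 176 CPM to 22.9, 25.8, 26.6 and 29.6 CPM (-2.63 ± 0.095), and Tnc from 178, 204, 226 and 181 CPM to 21.5, 25.7, 25.6 and 33.5 CPM (-2.89 ± 0.140). Both fell steeply again, with adjusted p-values of 3.08e-13 and 9.42e-12 (edgeR).

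Hapln1 rose 12.5-fold in PNS, from 8.35, 3.94, 3.87 and 3.83 CPM to 70.2, 72.6, 71.6 and 34.9 CPM (3.64 ± 0.314, adjusted p = 1.49e-08, edgeR). In both ages 1 library stood apart from its 3 partners, high at P1 and low at P14. Hapln4 rose 12.0-fold, from 1.18, 1.64, 2.79 and 0.958 CPM to 22.0, 16.6, 23.1 and 16.6 CPM (3.58 ± 0.302, adjusted p = 1.15e-08, edgeR). Bcan rose by 0.97 ± 0.120 and Tnr by 0.97 ± 0.134 (adjusted p = 1.35e-06 and 4.88e-06, edgeR). Without PNS replicate 4 at P14 the changes were 3.84 for Hapln1, 0.83 for Bcan and 0.82 for Tnr, and all 3 passed.

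In PNS the third member to fall was Acan, not Ptprz1. Acan went from 4.67, 4.78, 6.68 and 3.85 CPM to 2.06, 2.32, 3.22 and 3.48 CPM, a change of -0.84 ± 0.231 with no overlap between ages (adjusted p = 0.00346, edgeR). Without PNS replicates 2 and 3 at P1, 2 of the libraries rich in olfactory bulb markers, the change was -0.62 (adjusted p = 0.0484, edgeR). Without PNS replicates 1 to 3 it was -0.47 and no longer passed (adjusted p = 0.24, edgeR), with the lone P1 library assumed to vary like the other groups. Ptprz1 (-0.24 ± 0.119, adjusted p = 0.0804) and Ncan (-0.16 ± 0.157, adjusted p = 0.375) did not pass in edgeR's test. Without PNS replicate 4 at P14, which stood apart in its cell markers, both did, at -0.38 (adjusted p = 0.00294) and -0.41 (adjusted p = 0.00131), and Ptprz1 also passed without PNS replicate 4 at P1 (-0.33, adjusted p = 0.0187).

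Whether the changes with age differed between Ctrl and PNS is the test of the interaction. No member passed it in limma's fit of all 16 libraries, in which 0 of 15502 genes (0%) did. The lowest unadjusted p among the members was that of Acan, with a difference of -0.78 ± 0.328 (95% interval from -1.47 to -0.08, adjusted p = 0.818, limma). Without PNS replicates 2 and 3 at P1 the Acan difference was -0.58, without replicates 1 to 3 it was -0.43, and without PNS replicate 4 at P14 it was -0.90. It was the only one of the 9 under an unadjusted p of 0.05, as were 5.89% of all genes.

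The changes with age depend on how libraries are scaled. Scaling by total reads alone moved the median of all genes by -0.22 in Ctrl and -0.28 in PNS, and the split of genes called from 5846 higher and 6107 lower to 4455 and 7756 in Ctrl, and from 5775 and 6363 to 4025 and 8484 in PNS. Ncan then passed as lower in both groups (-0.56, adjusted p = 0.00069 in Ctrl; -0.45, adjusted p = 0.0034 in PNS; edgeR) and Ptprz1 in PNS as well (-0.53, adjusted p = 0.00024, edgeR). The directions of Vcan, Tnc, Hapln1, Hapln4, Bcan and Tnr, and that all 6 passed, were the same under each scaling tried.

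Shares within a family need no scaling between libraries. Levels per kilobase of exon were summed over the 4 lecticans, and the share of each was taken in every library. In Ctrl at P1 Ncan made up 66.3% ± 2.56, Bcan 24.5% ± 2.78, Vcan 8.90% ± 0.667 and Acan 0.316% ± 0.069 (SD, n = 4). At P14 Ncan held 51.3% ± 1.38, Bcan 47.0% ± 1.35, Vcan 1.40% ± 0.092 and Acan 0.301% ± 0.073. Brevican's share thus grew at the cost of neurocan and versican, whereas aggrecan remained a minor transcript of the whole tissue at both ages. In PNS the shares at P14 were 53.1% ± 2.7 for Ncan, 45.3% ± 2.48 for Bcan, 1.31% ± 0.201 for Vcan and 0.264% ± 0.060 for Acan. PNS replicate 4 had the highest Ncan share and the lowest Bcan share of that group, 57.1% and 41.7%.

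Shares within the tenascins and the link proteins also shifted with age. Tnr rose from 38.6% ± 4.31 of the tenascin pair at P1 to 87.5% ± 3.22 at P14 in Ctrl, and from 34.8% ± 2.71 to 88.5% ± 1.26 in PNS. Among the 4 link protein genes, Hapln3, the neighbour of Acan and a gene of tissues outside the nets, held 45.8% ± 8.52 in newborn controls and 5.41% ± 0.984 at P14. The level of Hapln3 itself did not pass as changed in Ctrl, with means of 3.28 CPM at P1 and 3.33 CPM at P14. Its fitted change was 0.03 (log2, adjusted p = 0.866, edgeR). Hapln1 went from 38.1% ± 8.42 to 64.1% ± 3.25 and Hapln4 from 14.3% ± 5.38 to 30.0% ± 3.20. The ages did not overlap in any of these shares. In PNS the Hapln4 share did overlap, at 17.4% ± 8.27 at P1 (9.66% to 28.8%) and 30.8% ± 5.92 at P14 (23.9% to 38.35%). The PNS shares of Hapln1 (34.1% ± 8.69 and 62.7% ± 6.72) and Hapln3 (46.2% ± 3.53 and 6.10% ± 1.26) did not. The rise of 1 gene lowers the shares of the others by construction.

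**Figure D2:**
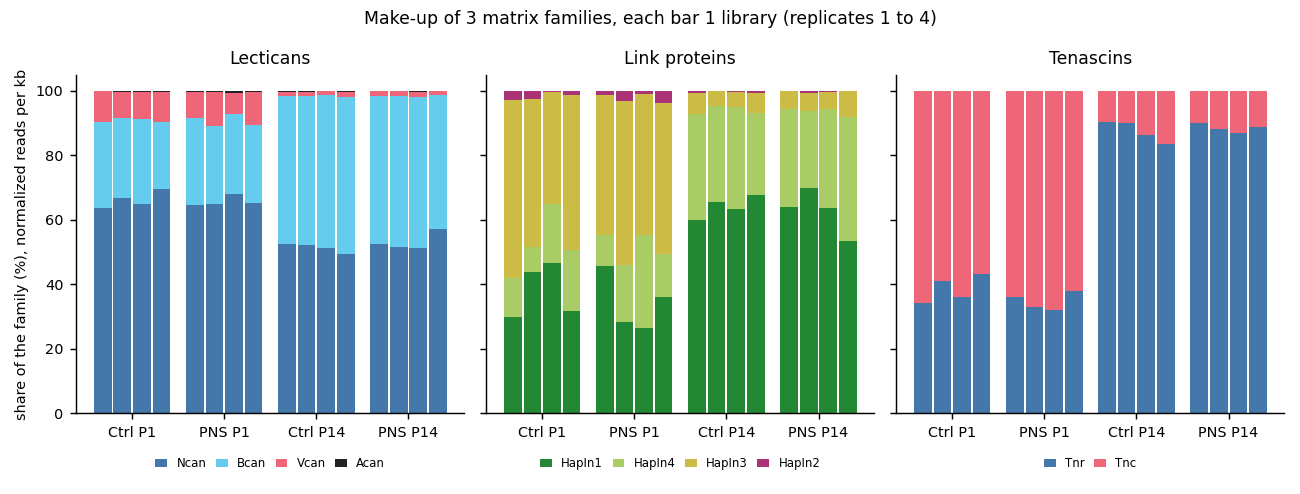
Share of each gene in the summed level per kilobase of its family (percent, from 0 to 100), for lecticans, tenascins and link proteins, with a bar for each of the 16 libraries, ordered by group and replicate. On average Bcan grows from 24.5% to 47.0% of the lecticans, Tnr from 38.6% to 87.5% of the tenascins and Hapln1 from 38.1% to 64.1% of the link proteins in Ctrl.

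Within an age, levels per kilobase of exon give the order of the members. In newborn controls Ncan led with 4266 ± 448 normalized reads per kb, at percentile 97.5 of 15918 protein-coding genes, followed by Ptprz1 with 1637 ± 121 and Bcan with 1566 ± 146, whose libraries overlap. Tnc (1152 ± 129), Tnr (726 ± 124) and Vcan (571 ± 52.7) came next, of which Tnr and Vcan overlap at their edges (613 to 902 and 500 to 627). Hapln1 (41.4 ± 17.0), Acan (20.4 ± 5.35) and Hapln4 (15.1 ± 7.0) were an order of magnitude lower, and Acan overlaps both of its neighbours in this order.

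At P14 the order in Ctrl was Ncan with 2175 ± 133 and Bcan with 1988 ± 85.7 normalized reads per kb, which overlap, then Tnr with 813 ± 107 and Ptprz1 with 725 ± 52.2, which overlap too. Hapln1 followed with 378 ± 56.7, Pvalb with 213 ± 66.1 and Hapln4 with 176 ± 30.7, of which Pvalb and Hapln4 overlap. Tnc (114 ± 19.2), Vcan (59.2 ± 3.34) and Acan (12.7 ± 3.11) closed the list, without overlap between neighbours. Acan was at percentile 18.5 of 15720 protein-coding genes at P14, although its protein is among the best known components of the net.

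Genes that build, cut or bind the net were taken as 5 lists besides the members. Of 19 tested genes that make chondroitin sulfate or hyaluronan, 9 rose and 8 fell from P1 to P14 in Ctrl, with a median of 0.20 against -0.04 over all genes (log2, edgeR). Of all genes tested 35.4% rose and 37% fell. Has3, a hyaluronan synthase, fell by 3.13, and Chsy1, which polymerises chondroitin, fell by 1.19. Chpf2, a chondroitin polymerising factor, rose by 1.52, and Csgalnact1, which starts the chains, rose by 1.25. Of 19 genes of turnover 5 rose and 9 fell (median -0.22): Hyal2, a hyaluronidase, fell by 1.62 and Mmp24, a membrane metalloproteinase, by 1.18 (log2). Cemip, which binds and breaks down hyaluronan, rose by 2.94, and Timp4, an inhibitor of metalloproteinases, by 2.60.

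Of 15 receptors and partners of the net 9 rose and 2 fell, with a median of 0.53, where 35.4% of all genes rose and 37% fell. The share called in either direction was 72.4% over all genes. Nrcam and Cntn1, cell adhesion molecules that bind tenascin-R, rose by 1.21 and 1.34, Rtn4rl1, a Nogo receptor relative that binds chondroitin sulfate, by 0.89, and the integrin subunit gene Itgav by 1.36. Of 11 tested genes of other brain matrix proteins 7 rose and 2 fell (median 1.08), with Nptx2 up by 3.09, Nptx1, also a neuronal pentraxin, by 1.62, Crtac1 by 1.76 and Cspg5, the transmembrane proteoglycan neuroglycan C, by 0.86.

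Genes of fast-spiking parvalbumin neurons other than Pvalb rose for the most part: 15 of 20 rose and 3 fell in Ctrl, with a median of 1.41. Of all genes 35.4% rose and 37% fell. Nefh, the heavy neurofilament, rose by 4.30, and the potassium channel genes Kcna1 and Kcnc2 by 2.38 and 2.60, and Cplx1, a regulator of transmitter release, by 1.62 (log2, edgeR). Many of these genes are also used by projection neurons, and 9 of 10 astrocyte markers and all 7 oligodendrocyte markers tested rose as well (medians 2.01 and 2.87). All 8 meningeal markers fell (median -1.44), and of 8 radial glia markers 5 fell and 2 rose (median -0.97), alongside Vcan and Tnc. What part these cells had in the changes of the members was not tested. In PNS the counts were alike, with 15 rising and 3 falling among the parvalbumin neuron genes (median 1.36). They were 10 and 7 for synthesis, 4 and 10 for turnover, 10 and 2 for receptors and 7 and 2 for other matrix genes. Over all genes 35% rose and 38.5% fell in PNS, with a median of -0.06.

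Pvalb itself, which encodes the calcium buffer that names these interneurons, was measured at P14, close to when the protein first appears in the rodent cortex. Its 8 libraries held 95 to 465 recovered reads. In Ctrl it stood at 176, 263, 297 and 153 normalized reads, 222 ± 68.8 (SD, n = 4), and in PNS at 310, 238, 166 and 125, 210 ± 81.8. The groups overlap throughout, and the difference was -0.11 ± 0.291 on the log2 scale (95% interval from -0.76 to 0.53, adjusted p = 0.989, limma). Without PNS replicate 4 it was 0.11, and its sign changed in 2 of the 8 fits that left out 1 library. The highest Ctrl library was 1.94-fold above the lowest and the highest PNS library 2.49-fold, the widest spread of any member at P14.

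Pvalb is also a gene of fast skeletal muscle. At P14 Ckm, Tnnt3, Tnni2 and Mylpf stood at 1.13 to 10.4 normalized reads over the 8 libraries, none at 0. The other muscle markers were higher, with 34.3 to 61.6 for Actn3, 50.4 to 87.1 for the fast myosin gene Myh4, 181 to 250 for Acta1 and 418 to 770 for Pygm. The 8 markers summed to 743 to 1160, and their part in the Pvalb values was not tested.

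Over the 8 P14 libraries Pvalb and Acan were arranged nearly in reverse, a pair picked out after its values were seen. The 4 libraries highest in Pvalb were PNS replicate 1 (310), Ctrl replicate 3 (297), Ctrl replicate 2 (263) and PNS replicate 2 (238), and the same 4 were lowest in Acan, at 68.6, 65.4, 90.1 and 76.9. The other 4 had 125 to 176 of Pvalb and 105 to 120 of Acan. This is a description of 8 libraries that differ in depth and cell makeup, and Ctrl replicate 3 is the shallowest of them.

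**Figure D3:**
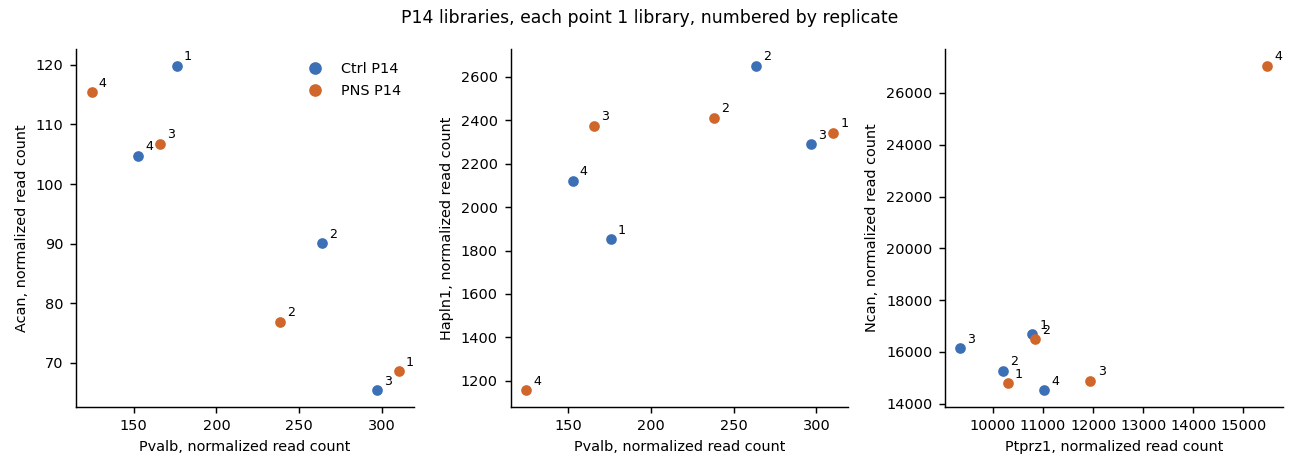
Normalized read counts of Acan against Pvalb, Hapln1 against Pvalb and Ncan against Ptprz1, with a point for each of the 8 P14 libraries, coloured by group and numbered by replicate. The libraries with the highest Pvalb have the lowest Acan, and PNS replicate 4 has the lowest Hapln1 (1157) and the highest Ncan (27056).

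Likeness was measured as the root mean square difference of centred log2 values over the 8 P14 libraries, among 13327 genes with a mean of at least 50. The genes closest to Pvalb were Col27a1, a fibrillar collagen gene, at 0.137, then Rmnd1, Deptor, Robo3 and Fbxo27 at 0.164 to 0.182, where the spread of Pvalb about its own mean was 0.453. Of the other members Hapln1 ranked 364 and Hapln4 1294 in likeness to Pvalb, while Acan ranked 13174. The genes closest to Acan were Trpm3, a cation channel gene, at 0.122, and AW551984, Mcm6, Gpc4 and Gstm7 at 0.141 to 0.148, against a spread of 0.317 for Acan itself. Vcan ranked 420 and Ptprz1 443 in likeness to Acan.

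The comparison of PNS with Ctrl asked what stress before birth had left in these genes. At P1 no member passed an adjusted p of 0.05 in limma's test, as for all 16711 genes tested (0%), and edgeR and DESeq2 on recovered reads called no member either. The groups overlapped for all 9 members, where 3.23% of all genes had groups that did not overlap. Acan was the only member under an unadjusted p of 0.05, which 6.67% of all genes were, and it ranked 138 by p. It stood at 111, 160, 135 and 204 normalized reads in Ctrl and at 238, 243, 333 and 194 in PNS, or 152 ± 40 and 252 ± 58.1 (SD, n = 4). The groups overlap by 1 library, PNS replicate 4, which lay below Ctrl replicate 4. The difference was 0.73 ± 0.212 on the log2(value + 1) scale, 1.66-fold, with a 95% interval from 0.26 to 1.20 (adjusted p = 0.669, limma).

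Markers of some other tissues stood higher in PNS replicates 1 to 3 than in any Ctrl library at P1. Aggrecan is also the main proteoglycan of cartilage, and the summed level of 8 cartilage markers was 235 to 275 normalized reads in Ctrl and 352, 550, 550 and 261 in PNS replicates 1 to 4. Col2a1, the cartilage collagen, stood at 68.5, 36.2, 41.8 and 88.8 in Ctrl and at 129, 283, 260 and 49.9 in PNS. Meningeal markers summed to 28380 to 35036 in Ctrl and to 38882, 51562, 58797 and 33533 in PNS, and all 8 stood above 0 in the difference, with a median of 0.55 against -0.02 for all genes. For the 6 olfactory bulb markers the median was 2.20. The PNS library with the lowest Acan, replicate 4, was also the one with the lowest sum of each of these lists. In Ctrl the order differed. Ctrl replicate 4 had the highest Acan, the lowest cartilage and bulb sums (235 and 878) and the highest meningeal sum (35036). Ctrl replicate 1 had the lowest Acan and the highest cartilage and bulb sums (275 and 2623). The part of these tissues in the Acan difference was not tested. Without PNS replicates 2 and 3 the Acan difference was 0.53 (adjusted p = 0.9997, limma), and without replicates 1 to 3 it was 0.38 (adjusted p = 0.9999, limma).

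The other members at P1 differed by less. Hapln4 stood at 48.2, 32.5, 97.0 and 59.2 normalized reads in Ctrl and at 60.0, 83.3, 139 and 48.3 in PNS (0.47 ± 0.379, adjusted p = 0.822, limma). Tnc differed by 0.15, Bcan by 0.07, Hapln1 by 0.05, Ncan by 0.01, Vcan by -0.01, Tnr by -0.08 and Ptprz1 by -0.10 on the log2 scale, with adjusted p-values from 0.789 to 0.988. The 95% intervals of Bcan, Ncan, Vcan, Tnr and Ptprz1 lay within -0.33 and 0.30. Those of Hapln1 (-0.67 to 0.77) and Hapln4 (-0.37 to 1.31) were wider. Among lecticans the share of Acan at P1 was 0.435% to 0.604% in PNS and 0.245% to 0.411% in Ctrl. The ranges come close, with PNS replicate 4 the lowest in PNS and Ctrl replicate 4 the highest in Ctrl. How often such shares lie apart for other genes was not computed. The share comes from the same reads as the difference in level, in which the groups overlap.

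At P14 no member passed either (0% of 15873 genes did), and none of the 10 had an unadjusted p under 0.05, against 3.02% of all genes (limma). The groups overlapped for all 10 members, while 2.12% of all genes had groups apart. Acan stood at 120, 90.1, 65.4 and 105 normalized reads in Ctrl and at 68.6, 76.9, 107 and 115 in PNS, a difference of -0.05 ± 0.226 (95% interval from -0.55 to 0.45, adjusted p = 0.993, limma). The smallest p was that of Ptprz1, at 10780, 10191, 9346 and 11015 in Ctrl and 10293, 10844, 11947 and 15478 in PNS (0.22 ± 0.116, adjusted p = 0.988, limma). Without PNS replicate 4 the Ptprz1 difference was 0.09. The rest differed by -0.15 (Hapln1) to 0.18 (Ncan).

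At P14 a single library decided the sign of the Ncan, Bcan, Tnr and Hapln1 differences. PNS replicate 4 had 27056 normalized reads of Ncan against 14792, 16485 and 14888 in its partners, 11152 of Bcan and 14584 of Tnr, the highest of all 8 libraries, and 1157 of Hapln1, the lowest. Without it the differences were -0.02 for Ncan in place of 0.18 and -0.05 for Bcan in place of 0.08. Those of Tnr and Hapln1 were -0.03 in place of 0.10 and 0.10 in place of -0.15. Pvalb went from -0.11 to 0.11 and Vcan from 0.02 to -0.04 without it, but their signs also changed when some other libraries were left out. The same library had the highest sums of cortical projection neuron, astrocyte (151140) and endothelial (9597) markers and the lowest of oligodendrocyte markers, while its GABAergic sum of 34763 was within 34730 to 40287 of the others. Their part in its Ncan and Hapln1 values was not tested.

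**Figure D4:**
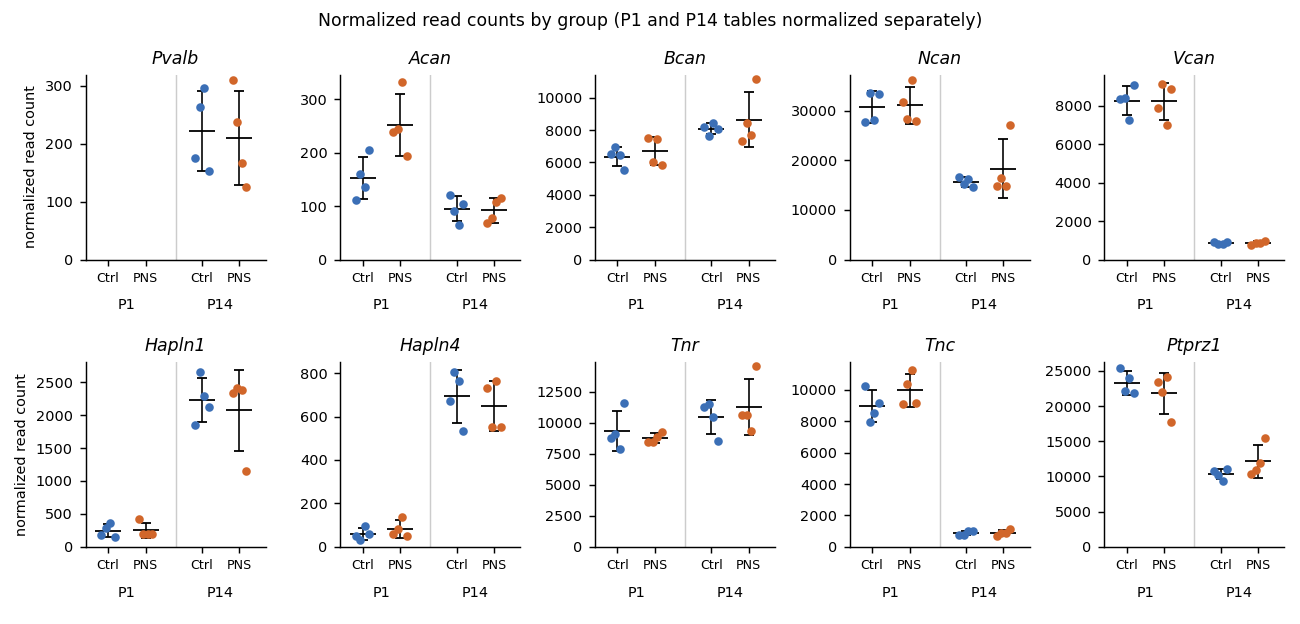
Normalized reads of the members in each library (points) with the mean and SD of each group (n = 4), Ctrl beside PNS at P1 and at P14, each panel on its own axis. The groups overlap for every member at each age at which it was analysed (Pvalb at P14 only), with Acan at P1 overlapping by 1 library.

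**Figure D5:**
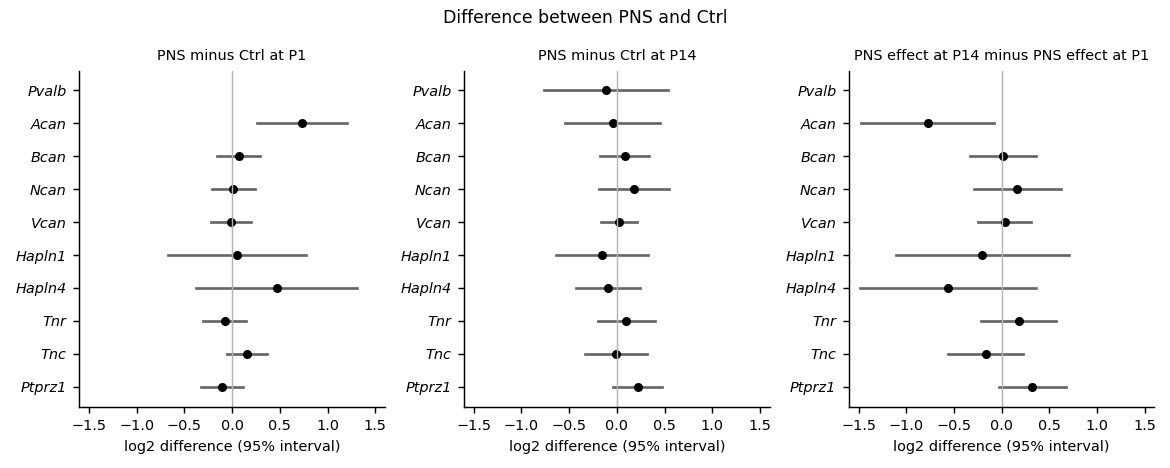
Difference PNS minus Ctrl (log2) with its 95% interval for each member analysed at P1, at P14, and the P14 difference minus the P1 difference (Pvalb at P14 only). Acan at P1 (0.73, from 0.26 to 1.20) and its change between ages (-0.78, from -1.47 to -0.08) are the only unadjusted intervals that leave out 0.

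The other net genes gave no call under stress at either age by limma. At P1 the genes with the smallest p of their lists included Adamts15, a protease that cuts lecticans, at 279, 261, 260 and 279 normalized reads in Ctrl and 451, 692, 699 and 297 in PNS (0.90 ± 0.239, adjusted p = 0.669, limma). Dcn, the meningeal and vascular proteoglycan decorin, stood at 1748, 1500, 1372 and 1678 in Ctrl and 2839, 4780, 3823 and 1615 in PNS (0.95 ± 0.270, adjusted p = 0.669, limma). In both genes PNS replicate 4 was the lowest of the PNS libraries, as in the meningeal and bulb markers, and the part of those tissues was not tested. Mmp9, a gelatinase that acts on nets, differed by -0.53 ± 0.165, Adamts1 by 0.38 and Itga8, an integrin subunit gene, by 0.67, all with adjusted p-values from 0.669 to 0.687. Among genes of synthesis Dse, which epimerises chondroitin to dermatan sulfate, differed by 0.27 ± 0.092 (adjusted p = 0.687) and Has3 by -0.29 ± 0.114, and among parvalbumin neuron genes, Satb1 differed by -0.22 ± 0.085 (adjusted p = 0.719 for the last 2, limma).

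The medians of the lists at P1 lay from -0.05 (receptors) to 0.11 (other matrix), against -0.02 for all genes, and at P14 from 0.00 (turnover) to 0.04 (other matrix), against 0.00. At P14 Adamts9, a protease of versican and aggrecan, differed by -0.36 ± 0.116, Nefh by 0.17 ± 0.068 and Tac1, the tachykinin precursor, by -0.33 ± 0.133, each with an adjusted p of 0.988 (limma).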

How the data were processed

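The deposited values are signal, DESeq2-normalized counts by the authors, in 1 table per age rounded to 2 decimals. Per the submitters' processing notes, the tools were cutadapt, STAR 2.7.3a, HTSeq and DESeq2, and the build GRCm38. Per the labels' protocols, libraries were poly(A)-based, from RNA of an RNeasy micro kit. Annotation release, strand and gene filter: not given in the sources used here. In each library 99.968% to 100% of values were whole multiples of the value of 1 read within 0.0051, so the reads themselves could be restored. There were 19748 genes at P1 and 19014 at P14, 18268 of them at both ages, and each age had been normalized on its own.

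Within an age, limma-trend (limma 3.58.1, R 4.3.3) was fitted to log2(value + 1), which understates changes of weak genes, where the mean reached 10. Benjamini-Hochberg adjustment ran over all genes, with a threshold of 0.05. The interaction used all 16 libraries. Between ages, edgeR 4.0.16 with TMM scaling and the quasi-likelihood test was run on restored reads in 1 model of all 16 libraries, with a minimum mean of 10 reads. On these reads, edgeR called 0 genes for PNS against Ctrl at P1 and 0 at P14, and DESeq2 1.42.0 called 68 and 8, with no member among them. The normalized unit kept limma as the test within ages. The scripts were tested on simulated data. Chi-square per gene between replicates was 6.07 to 59.5, above sampling noise. Levels per kb use summed exon lengths of GENCODE vM21, which held 19713 and 18980 of the gene IDs.

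All 10 members are described for PNS against Ctrl at P14, and the 9 without Pvalb in the other comparisons. Up to 4 genes with the smallest p are named from each of 5 pathway lists, and the 5 genes most like Pvalb and Acan are named. The members and lists were chosen with earlier results of these data known. Alternatives were the pseudocount, filter, scaling, tool, replicate block and each library left out in turn. Leaving out PNS replicates 2 and 3, or 1 to 3, at P1 was chosen after seeing the data.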

Additional observations from a re-analysis of the deposited data

Results flagged for a closer look

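Among 38 sets of 4 libraries (a member in a group), 3 held a library far from its partners by Dixon's criterion, where chance gives about 1.9. Ncan in PNS at P14 was 27056 normalized reads in replicate 4, above 14792, 16485 and 14888 in the others. Hapln1 in PNS at P14 was 1157 in the same library, below 2343, 2411 and 2375. Hapln1 in PNS at P1 was 426 in replicate 1, above 201, 193 and 193. The cause was not tested.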

How the results depend on the processing

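The members' changes with age held best: under 14 alternatives in Ctrl and 16 in PNS, Vcan, Tnc, Hapln1, Hapln4, Bcan and Tnr passed in the same direction, and 7 to 8 members passed in Ctrl and 6 to 9 in PNS. For PNS against Ctrl no member passed under any alternative. The count of genes called at P1 was 68 with DESeq2, 1 with all 16 libraries in 1 fit, 1 without PNS replicates 1 to 3 and 0 to 123 when 1 library was left out, with 123 without PNS replicate 4 (120 higher and 3 lower). At P14 it was 8 with DESeq2 and 0 to 5 with a library left out, and for the interaction 0 to 65, again highest without PNS replicate 4 at P1.

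Small differences changed sign. At P1 Vcan was 0.00091 after TMM rescaling and 0.0047 in edgeR, and without PNS replicates 2 and 3 it was 0.022, Ncan -0.037 and Hapln4 -0.027, and Vcan in the interaction -0.0022. Without PNS replicates 1 to 3 at P1 the P1 differences were 0.11 for Vcan, -0.13 for Ncan, -0.12 for Bcan, -0.25 for Hapln1, -0.18 for Hapln4 and 0.0070 for Tnr, the interaction 0.087 for Hapln4, 0.091 for Hapln1 and -0.091 for Vcan, and the PNS age change of Ptprz1 0.056. With a library left out, the P1 ranges were -0.060 to 0.062 for Ncan, -0.23 to 0.28 for Hapln1, -0.072 to 0.064 for Vcan and -0.16 to 0.030 for Tnr. At P14 they were -0.21 to 0.082 for Acan, -0.039 to 0.080 for Vcan, -0.33 to 0.11 for Pvalb, -0.13 to 0.082 for Tnc, -0.25 to 0.10 for Hapln1, -0.048 to 0.15 for Bcan, -0.029 to 0.18 for Tnr and -0.024 to 0.27 for Ncan. For the interaction they were -0.12 to 0.084 for Bcan, -0.044 to 0.092 for Vcan, -0.43 to 0.074 for Hapln1 and -0.039 to 0.25 for Ncan, and for age in Ctrl -0.15 to 0.14 for Acan. The cause was not tested. The P1 difference of Acan ran from 0.59 to 0.88 (adjusted p from 0.127 to 0.9995, limma), lowest without PNS replicate 3.

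With the replicate block the counts were 0 at P1, 0 at P14, 0 for the interaction, 11828 for age in Ctrl and 12036 in PNS, and Acan with age in Ctrl was 0.0088. Deviations from the group means were correlated over genes between libraries with the same number. The correlations ran from -0.149 to 0.211 at P1, from -0.132 to 0.027 at P14, from -0.096 to 0.015 across ages in Ctrl and from -0.130 to 0.059 in PNS. Closest to their own number were 2, 0, 1 and 0 of 4 libraries. With 4 libraries per group these correlations cannot show whether the numbers link libraries, and the main fits used no pairing. Acan at P14 (28 to 242 reads), Hapln4 at P1 (35 to 157) and Pvalb (95 to 465) rest on few reads.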
